A study of Mus musculus with 32 samples.

Results

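The apolipoprotein genes Apoa1, Apoa2, Apoa4, Apoa5, Apob, Apoc1, Apoc2, Apoc3, Apoe and Apoh were found by matching their symbols to the gene names of the deposited tables, and all 10 have a row among the 55289 named genes of each table. The libraries are degradome libraries, in which short tags are read from the 5' ends of poly(A) RNA that lacks a cap, so a value counts broken or decapped copies of a transcript and not intact ones. They came from male mice 4 months old: Ftsj1_DF mice, deficient in the X-linked tRNA methyltransferase gene Ftsj1, and WT mice, their wild-type brothers; the labels name neither the Ftsj1 allele nor the strain. The same 3 Ftsj1_DF and 3 WT mice gave the brain, heart, kidney and liver libraries, and a further 4 Ftsj1_DF and 4 WT mice gave the spleen libraries, 32 libraries in all. The files hold 1 table per organ with the authors' comparison of Ftsj1_DF over WT and a mean over both genotypes, and no value per library, so neither single mice nor depth per library can be shown here.

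Apolipoproteins are the protein parts of the particles that carry cholesterol and triglycerides in blood. ApoB is the scaffold of very-low-density and low-density lipoproteins and of chylomicrons, apoA-I and apoA-II are the main proteins of high-density lipoprotein, and the small apoC proteins and apoA-V tune lipoprotein lipase and the clearance of remnants. Hepatocytes are the main source of most of them, the intestine also makes apoB, apoA-I and apoA-IV, and apoE is made in addition by astrocytes and macrophages.

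The organ names of the tables did not all match their contents. In the authors' deposited tables the hepatocyte transcript Alb held 475 ppm in the heart and 223022 ppm in the brain-named table, where ppm are a gene's tags per 1000000 tags of the table, its mean divided by the table's sum of means. The 14 neuron markers summed to 4235 ppm in the liver-named table, against 26.9 where the label says brain. The 2 tables are therefore called brain-named and liver-named throughout, and the brain-named one is the hepatocyte-rich table against which levels are set. Ftsj1 had a negative log2 fold change in every deposited table, between -1.56 and -3.38, which is how the direction of the comparison was read. Pancreatic acinar markers made up 15.3% of the spleen table. Levels set across tables are descriptions, since the tables were normalized separately and give no spread over libraries for a mean.

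The members summed to 40.8 ppm in the heart, 297 in kidney, 131 in the spleen and 116 in the liver-named table, against 1.29% of all tags in the brain-named table, where 9 of the 10 genes held tags. All 9 were at their highest in the brain-named table. In bulk RNA, fewer cells of a type and less RNA per cell cannot be told apart, and neither can more decay of a transcript and more of the transcript. The levels below were computed in ppm from the authors' deposited tables and are not corrected for transcript length, so each gene is compared across tables and not with other genes, and the percent of a gene is its level relative to its own level in the brain-named table.

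**Figure D1:**
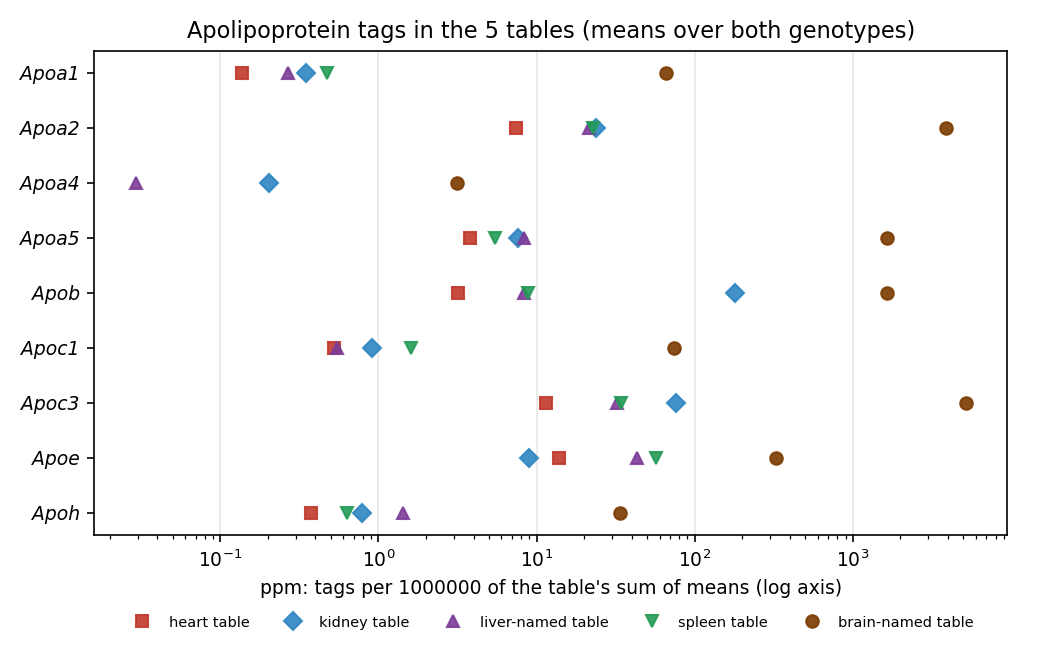
Levels in ppm, tags per 1000000 of each table's sum of means (log axis), for the 9 apolipoprotein genes with tags, 1 point per deposited table, each a mean over Ftsj1_DF and WT libraries. Every gene has its rightmost point in the brain-named table, Apob has its second point in the kidney table, and Apoa4, listed at 0 in the heart and spleen tables, has 3 points.

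Among the proteins of high-density lipoprotein, Apoa2 had 7.46 ppm in the heart, 23.8 in kidney, 22.7 in the spleen and 21.5 in the liver-named table, against 3873 in the brain-named table. Those levels are 0.193%, 0.613%, 0.586% and 0.556% of its brain-named level. Alb stood at 0.213%, 0.516%, 0.534% and 0.548% of its own, so Apoa2 and Alb kept nearly the same proportion in all 5 tables. Apoa1, which also activates the enzyme that esterifies cholesterol on the particle, had 0.136, 0.347, 0.470 and 0.268 ppm in the heart, kidney, spleen and liver-named tables, against 66.0 in the brain-named table. It followed the same course, at 0.207%, 0.526%, 0.712% and 0.406%. Apoa4, a protein of intestinal chylomicrons, had few tags anywhere, with 0.202 ppm in the kidney and 0.0292 in the liver-named table, against 3.15 in the brain-named table, and was listed at 0 in the heart and spleen tables.

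Of the genes that act on lipoprotein lipase, Apoa5, which raises its activity, had 3.81, 7.63, 5.47 and 8.29 ppm in the heart, kidney, spleen and liver-named tables, against 1655 in the brain-named table. Apoc3, which slows lipolysis and the uptake of remnants, had 11.5, 75.9, 34.1 and 32.1 ppm in those tables, against 5188 in the brain-named table. Apoa5 thus lay at 0.230%, 0.461%, 0.330% and 0.501% of its brain-named level and Apoc3 at 0.221%, 1.46%, 0.658% and 0.619%, nearly equal in the heart and close in the liver-named table, with Apoc3 the higher in the kidney and spleen tables. Apoc1, a small inhibitor of particle uptake, had 0.526, 0.916, 1.60 and 0.547 ppm in the same 4 tables, against 74.1 in the brain-named table. Its shares were 0.710%, 1.24%, 2.16% and 0.739%, above that of Alb in each of the 4 tables.

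Apob departed from the course of Alb in the kidney table, and Apoe and Apoh departed from it in all 4 tables. Apoc1 also lay above Alb in all 4. In the kidney so did Apoc3, at 1.46%, and Apoa4, at 6.41% on a mean of 9.81 tags, where Alb was at 0.516%. Apob had 179 ppm in the kidney table, against 1655 in the brain-named table, which is 10.8% of its brain-named level. In the other 3 tables it held 3.18 (heart), 8.90 (spleen) and 8.34 (liver-named), at 0.192%, 0.538% and 0.504%, close to Alb. The kidney share of Apob was 7.15% with means as deposited and 4.91% with tables scaled by median ratios. Mttp, the transfer protein that loads lipid onto apoB, had 13.9 ppm in the kidney table, against 87.5 in the brain-named table, or 15.9%. Apoe, the ligand of the low-density lipoprotein receptor family, had 13.8, 8.90, 57.0 and 43.1 ppm in the heart, kidney, spleen and liver-named tables, against 325 in the brain-named table. Those levels are 4.25%, 2.74%, 17.5% and 13.2% of its brain-named level, the highest of the 9 genes in every table but the kidney, where Apob and Apoa4 were higher. With median ratios the Apoe shares were 11.03% in the spleen and 5.82% in the liver-named table, and with means as deposited 11.6% and 12.3%. Apoh, a phospholipid-binding plasma protein also called beta-2-glycoprotein I, had 0.375, 0.792, 0.629 and 1.44 ppm in the same 4 tables, against 33.9 in the brain-named table. Its shares were 1.11%, 2.34%, 1.86% and 4.25%, above that of Alb in each of these tables. They rest on means of only 18.9, 38.5, 30.7 and 98.1 tags.

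The shares were set beside those of 25 other secreted hepatocyte proteins with tags, whose medians were 0.233% in the heart, 0.934% in kidney, 0.417% in the spleen and 0.474% in the liver-named table. Within a factor of 2 of that median lay 5 of the 9 apolipoprotein genes in the heart, 4 in kidney, 5 in the spleen and 7 in the liver-named table. Apoe stood at 18.3, 2.93, 42.1 and 27.9 times the marker median in the heart, kidney, spleen and liver-named tables, and Apob at 11.6 times in the kidney. Apoh stood at 4.75, 2.50, 4.45 and 8.96 times it in the same 4 tables. Apoc1 was at 3.05 times in the heart and 5.18 times in the spleen, and Apoa4 at 6.87 times in the kidney. Some hepatocyte markers stood as far out: Ttr, the thyroid hormone carrier, was at 25.5% in the liver-named table and Kng2, a kininogen, at 22.9% in the kidney table. In the heart and spleen tables, 0 of the 25 markers lay above Apoe, and the highest were at 2.79% and 7.09%. These ratios do not depend on how the tables are scaled to each other, because a scaling multiplies every gene of a table alike.

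**Figure D2:**
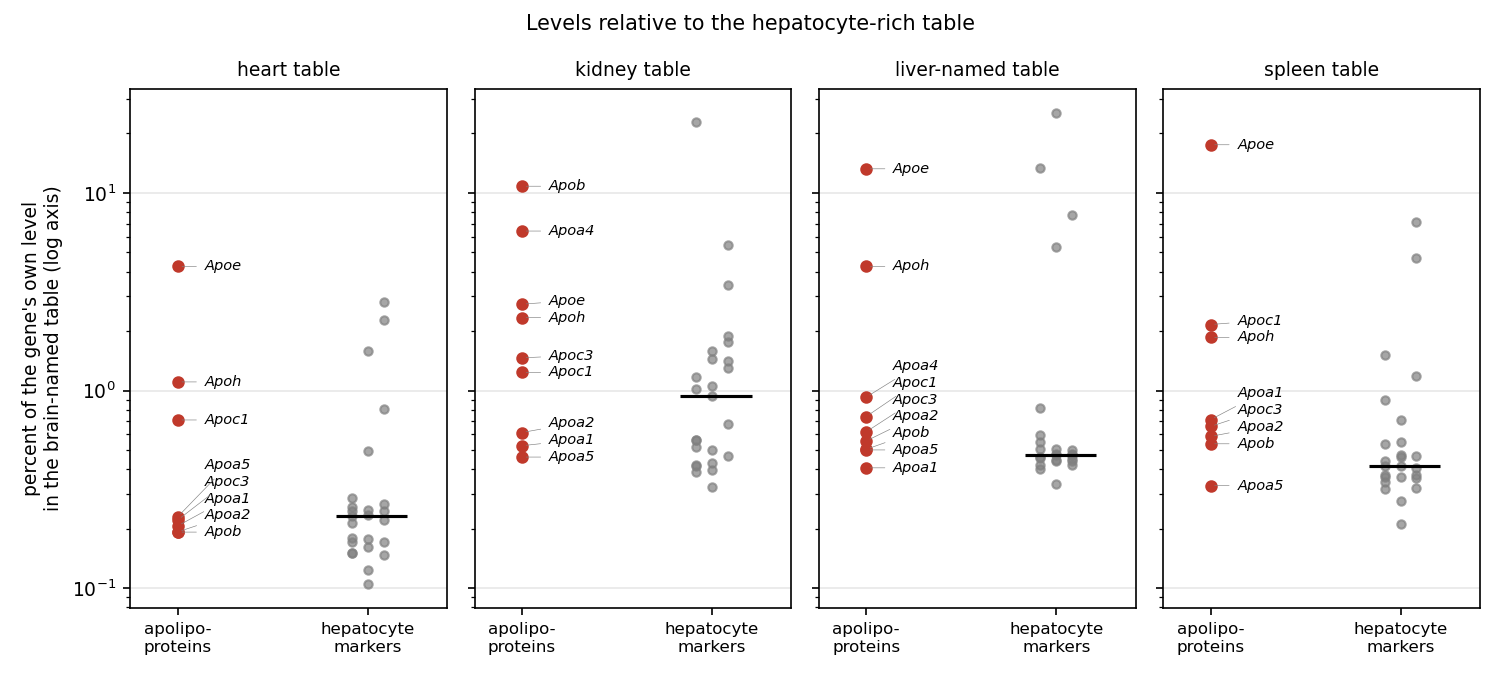
Level of each gene as percent of its own level in the brain-named table (log axis) in the 4 other deposited tables, for the apolipoprotein genes (red, named) and 25 other secreted hepatocyte proteins (grey, with the median as a black bar). Most red points lie near the black bars, while Apoe lies at 17.5% and 13.2% in the spleen and liver-named tables and Apob at 10.8% in the kidney table.

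Astrocyte and macrophage markers give the context of the Apoe levels. The 12 astrocyte markers summed to 127 ppm in the heart, 1015 in kidney, 62.6 in the spleen and 2919 in the liver-named table, against 1247 in the brain-named table. The 20 markers of microglia and macrophages summed to 235, 263, 1986 and 463 ppm in those tables, against 523 in the brain-named table. The median per astrocyte marker was 103 ppm in the liver-named table and 2.45 to 5.16 in the others. The astrocyte sums of the kidney and brain-named tables thus rest on part of the list. Per marker of microglia and macrophages, the median was 28.9 ppm in the spleen table and 5.70 to 10.9 in the others. The liver-named table was highest in astrocyte sum and median, and the spleen table in macrophage sum and median. These were also the 2 non-hepatic tables where Apoe was highest. The part of these cells in the Apoe tags was not tested. For Apob, the 12 kidney tubule markers summed to 16219 ppm in the kidney table, and the 12 enterocyte markers to 266 there and to at most 14.9 in the other tables. The median per enterocyte marker was 0.216 ppm in the kidney table and 0.135 to 0.743 in the others, so the kidney sum rests on part of the list.

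Of the genes next to the members, Zpr1 and Tomm40 had other courses and Apoc4 followed that of the members. On chromosome 9, where Apoa1, Apoc3, Apoa4 and Apoa5 lie together, the neighbour Zpr1, a zinc-finger protein gene, had 96.9, 95.1, 144 and 114 ppm in the heart, kidney, spleen and liver-named tables, against 156 in the brain-named table. On chromosome 7, beside Apoe and Apoc1, Tomm40, a mitochondrial import channel gene, had 22.7, 18.7, 10.7 and 28.1 ppm in the same 4 tables, against 7.48 in the brain-named table. Apoc4, which lies beside Apoc2 there, was listed at 0 in the heart and had 0.0417, 0.0103 and 0.0286 ppm in the kidney, spleen and liver-named tables, against 8.11 in the brain-named table. Those levels are at most 0.514% of its brain-named level. Beside Apoa2 on chromosome 1, Tomm40l, a gene related to Tomm40, had 0.859, 9.22, 0.558 and 3.47 ppm in the heart, kidney, spleen and liver-named tables, against 5.22 in the brain-named table. Fcer1g, the gene of an immune receptor subunit, had 0.441, 0.562, 4.81 and 0.325 ppm in the same tables, against 0.293 in the brain-named table, so neither of these followed Apoa2.

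The bases before the start are shown for 4 members, as examples of shares like and unlike that of Alb. The shares of Apoa2 and Apoa5 lay within a factor of 2 of that of Alb in all tables, and those of Apob and Apoe did not. Promoters were given for 8 of the 10 genes, all but Apoc1 and Apoc3. Each is the 250 bases upstream of the first start listed by RefSeq on GRCm38.p6, 5' to 3' on the gene's strand, with capitals for matches, on either strand, to the letters of 5 short motifs given with their counts after the sequences.
Apoa2, chr1:171224804-171225053, plus strand: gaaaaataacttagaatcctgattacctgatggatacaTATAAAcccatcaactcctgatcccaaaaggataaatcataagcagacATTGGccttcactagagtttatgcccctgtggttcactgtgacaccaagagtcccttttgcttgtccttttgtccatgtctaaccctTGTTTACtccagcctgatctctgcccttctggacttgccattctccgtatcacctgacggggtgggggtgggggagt
Apoa5, chr9:46268358-46268607, plus strand: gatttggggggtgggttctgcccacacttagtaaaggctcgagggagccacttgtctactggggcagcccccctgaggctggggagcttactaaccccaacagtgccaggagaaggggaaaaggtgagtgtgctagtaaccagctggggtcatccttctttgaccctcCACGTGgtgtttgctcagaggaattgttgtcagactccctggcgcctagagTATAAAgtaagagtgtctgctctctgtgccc
Apob, chr12:7977427-7977676, plus strand: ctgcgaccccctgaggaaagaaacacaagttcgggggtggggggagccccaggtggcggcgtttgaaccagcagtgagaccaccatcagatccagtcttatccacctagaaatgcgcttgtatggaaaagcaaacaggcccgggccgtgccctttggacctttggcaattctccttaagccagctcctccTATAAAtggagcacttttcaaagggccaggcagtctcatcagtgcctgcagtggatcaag
Apoe, chr7:19699189-19699438, minus strand: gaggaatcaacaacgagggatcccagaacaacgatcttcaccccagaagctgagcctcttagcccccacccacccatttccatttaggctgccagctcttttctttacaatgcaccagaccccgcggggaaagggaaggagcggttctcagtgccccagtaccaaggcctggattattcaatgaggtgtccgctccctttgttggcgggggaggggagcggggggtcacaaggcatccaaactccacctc

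The TATA box, searched as TATAAA, was in 3 of the 8 members' windows, those of Apoa2, Apoa5 and Apob, and in 13.0% of 27025 promoter windows of the same length. Its first base lay at -31 in Apoa5 and at -60 in Apob, counted from the start, and at -212 in Apoa2. The forkhead motif, searched as TGTTTAC, was in 2 windows, Apoa2 and Apoh, and in 3.09% of all windows. The E-box, as CACGTG, was in Apoa5 alone and in 6.05% of all windows. The nuclear receptor motif, as AGGTCA, was in Apoc2 and Apoh and in 13.8% of all windows, and CCAAT was in Apoa2 alone and in 34.5% of all. None of these motifs overlapped another in the 4 windows shown. The Apoe window had no match to any of the 5 motifs. A match describes these letters only.

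Over the 5 tables, the genes with levels most like each member were found among 9131 candidates by the distance of log2 levels, taken of ppm with a pseudocount of 1, after each gene's own mean was taken off. The nearest to Apoa2 were Alb, Akr1c6, a steroid reductase gene, and Plg, plasminogen. Those of Apoa5 were Serpinc1, the gene of antithrombin, Fgb, a fibrinogen chain, and Mup21, a major urinary protein. Apob was nearest to Cyp4a14, a fatty acid hydroxylase gene, Proc, protein C, and Gcgr, the glucagon receptor, at log2 distances of 0.48, 0.57 and 0.71. Apoe had its nearest genes at 1.13, 1.16 and 1.24, namely Serpina3n, Zfand4 and Trf, the gene of transferrin. For the other members with tags the nearest gene lay between 0.21 and 0.60. Outside the brain-named table Apoa1, Apoa4, Apoc1 and Apoh lay near or below the pseudocount, which limits how far their log2 levels can vary. Their distances are therefore not like that of Apoe, and Apoa4 had a mean of only 231 tags at its highest.

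Apoc2, the activator of lipoprotein lipase, was listed at 0 in all 5 deposited tables, including the hepatocyte-rich one. In RefSeq it lies inside the span of the read-through gene Gm44805, which joins Apoc4 and Apoc2. Of 527 protein-coding genes inside the span of another protein-coding gene, 411 were listed at 0 in all 5 tables, which is 78.0%, against 1045 of 20691 not inside one, or 5.05%. How reads of overlapping genes were assigned is not given in the sources used here, so a 0 cannot be read as a lack of Apoc2 RNA. Apoc4, which shares that span, had 8.11 ppm in the brain-named table. Apoa2 overlaps Tomm40l in RefSeq, and whether counting used the strand is not given in the sources used here.

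Whether the tags of these genes differed between Ftsj1_DF and WT mice was read from the authors' DESeq2 Wald test, with adjusted p under 0.05 as the threshold. In the authors' deposited brain-named table, none (0) of 9 members passed, where 0.414% of 17619 genes tested did, and 4 of 9 had an unadjusted p under 0.05, against 6.82% of all genes with a p. Apoa2 had the smallest adjusted p in this deposited table, with a log2 fold change of 1.40 ± 0.40 (SE), a p of 3.98e-04 and an adjusted p of 0.0716 by DESeq2. Its 95% interval was 0.63 to 2.18 on the log2 scale. Apoc1 had 1.75 ± 0.57 with an adjusted p of 0.130 by DESeq2, Apoh 1.28 ± 0.53 with 0.303 and Apoc3 1.00 ± 0.38 with 0.225 in the authors' deposited table. Apoa4, Apob, Apoa1 and Apoe had log2 fold changes of 1.11, 0.70, 0.60 and 0.36, and Apoa5 had -0.12 ± 0.31.

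The 9 members had a median log2 fold change of 1.00 in the brain-named table, against 0.04 over all genes tested, and 8 of 9 values were above 0, against 53.3% of all genes. The other secreted hepatocyte proteins had a median of 0.05 there, with 16 of 25 above 0 and 0 passing, and 0 of them had an unadjusted p under 0.05. Alb was at 0.78 ± 0.41 in the authors' deposited table, at the upper end of these proteins, which ran from -0.82 to 0.78. Other groups also had positive medians in this table. Above 0 were 11 of 12 kidney tubule markers (median 0.43) and 8 of 9 cardiomyocyte markers (median 0.42). So were 10 of 12 neuron markers (median 0.19) and 7 of 7 erythroid markers (median 0.69). The B cell, enterocyte, adipocyte and adrenal cortex markers had medians below 0, at -0.02, -0.19, -0.37 and -0.63. The 69 tested cytosolic ribosomal protein genes had a median of 0.85, with 62 above 0 and 1 that passed, and the median of the 33 tested genes of the mitochondrial genome was 0.89, with 31 above 0 and 0 that passed. All 12 tested pancreatic acinar markers were above 0, with a median of 4.12, and 3 of them rose, Amy2a5, Pnliprp1 and Spink1, enzymes and an inhibitor of pancreatic juice. The 15 acinar markers summed to 3542 ppm over both genotypes, with 1 of them at 0, and 2 of 20 macrophage markers, Aif1 and Marco, rose. The part of these genes' shifts in the members' values was not tested, and their level in each genotype cannot be read from the tables.

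**Figure D3:**
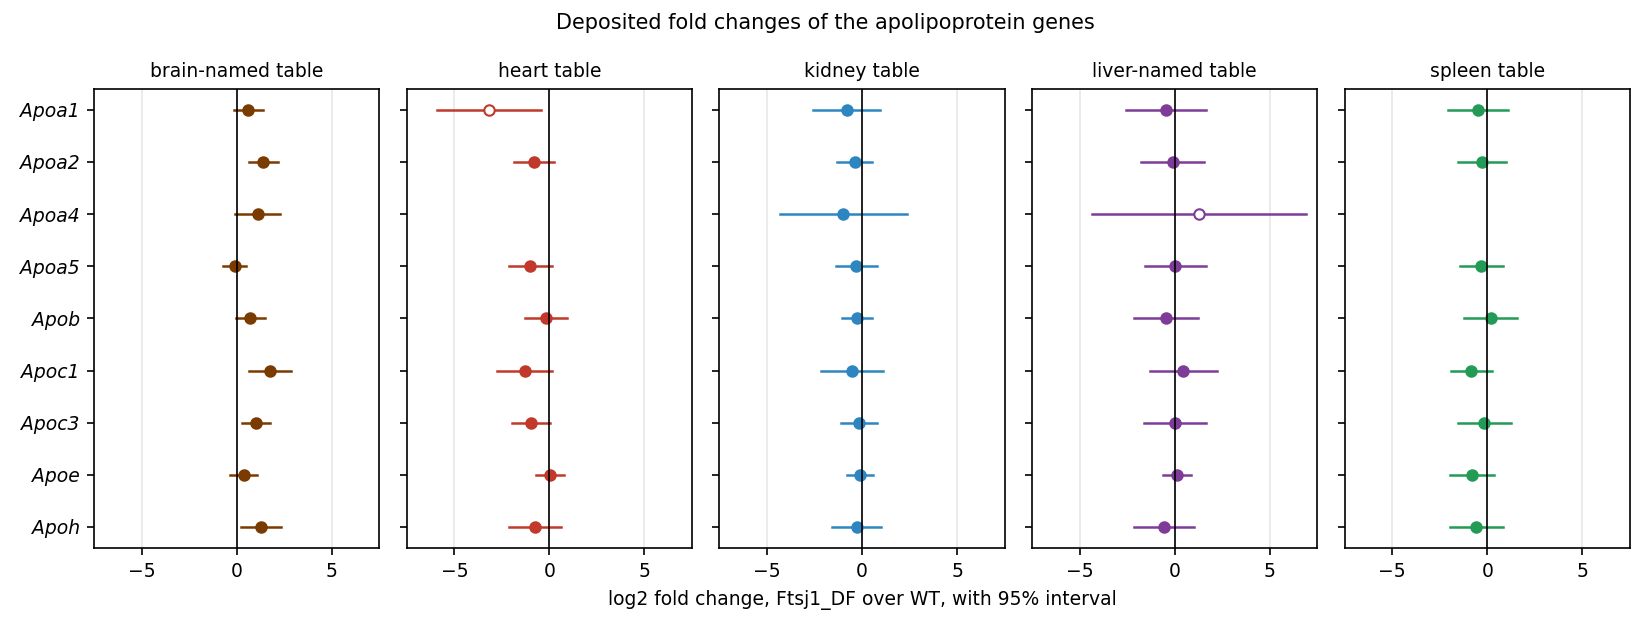
Log2 fold change, Ftsj1_DF over WT, with its 95% interval for each apolipoprotein gene in the 5 authors' deposited tables. Filled points have an adjusted p and open points have none. Of the 9 points of the brain-named table, 8 lie right of 0 and Apoa2 is at 1.40, while all 9 points of the kidney table lie left of it.

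Of 7 members with an adjusted p in the heart table, 0 passed, where 1.19% of 19847 genes did, and 1 of 8 had an unadjusted p under 0.05, against 6.73% of all. That gene was Apoa1, at -3.17 ± 1.40 with a p of 0.0238 by the DESeq2 test and no adjusted p, on a mean of 6.88 tags in the authors' deposited table. Apoc1 was at -1.31 ± 0.74, Apoa5 at -1.01 ± 0.57 and Apoc3 at -0.97 ± 0.50 in this deposited table, and Apoe was at 0.02 ± 0.38. The median of the 7 tested members was -0.79, against 0.01 over all genes tested, and 1 of 7 was above 0, against 51.1% of all. The hepatocyte markers lay alike, with a median of -0.62 and 1 of 25 above 0. So did markers of some other cells: 0 of 13 neuron markers (median -0.42), 0 of 14 pancreatic acinar markers (median -0.50) and 2 of 12 kidney tubule markers (median -0.47) were above 0 in the heart. B cell and adipocyte markers had medians of -1.28 and -1.32. Other lists did not lie so: 7 of 7 erythroid (median 0.46), 10 of 19 macrophage (median 0.02) and 5 of 12 astrocyte markers (median -0.09) were above 0. Cardiomyocyte markers had 7 of 10 above 0, with a median of 0.01.

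Of 9 members in the kidney table, 0 passed, where 2.07% of 19630 genes did, and 0 had an unadjusted p under 0.05, against 7.74% of all. All 9 values were below 0, while 49.1% of all genes were above 0, and they lay between -0.12 for Apoe and -0.99 for Apoa4, and 20 of 25 hepatocyte markers were also below 0, with a median of -0.40. In the kidney 0 of 9 cardiomyocyte markers (median -0.63), 3 of 13 neuron markers (median -0.51) and 4 of 14 acinar markers (median -0.12) were above 0 as well. Astrocyte, macrophage, B cell, erythroid and adrenal cortex medians were also below 0, between -2.22 and -0.04. Above 0 were the medians of tubule markers (0.19, 7 of 12 above 0), adipocyte markers (0.22, 6 of 10) and enterocyte markers (0.01, 3 of 6). Apob, with its kidney level of 179 ppm, was at -0.27 ± 0.41 in the authors' deposited table, a 95% interval from -1.07 to 0.53. Of 8 members with an adjusted p in the liver-named table, 0 passed, where 0.203% of 22211 genes did, and 0 had an unadjusted p under 0.05, against 7.33%. Of the 8 values 4 were above 0, against 47.1% of all genes, and they ran from -0.55 for Apoh to 0.46 for Apoc1, with Apoe at 0.11 ± 0.38 in the authors' deposited table, an interval from -0.64 to 0.86. Of 8 members in the spleen table, 0 passed, where 0.217% of 23092 genes did, and 0 had an unadjusted p under 0.05, against 4.22%. There 1 of 8 values was above 0, against 49.5% of all genes, and 21 of 25 hepatocyte markers were also below 0, with a median of -0.19. Apoe was at -0.78 ± 0.59 in the authors' deposited spleen table, an interval from -1.94 to 0.38, and Apob at 0.18 ± 0.71. The members' standard errors had medians of 0.56, 0.68 and 0.83 in the kidney, spleen and liver-named tables, so a lack of calls does not show that the genotypes were alike.

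**Figure D4:**
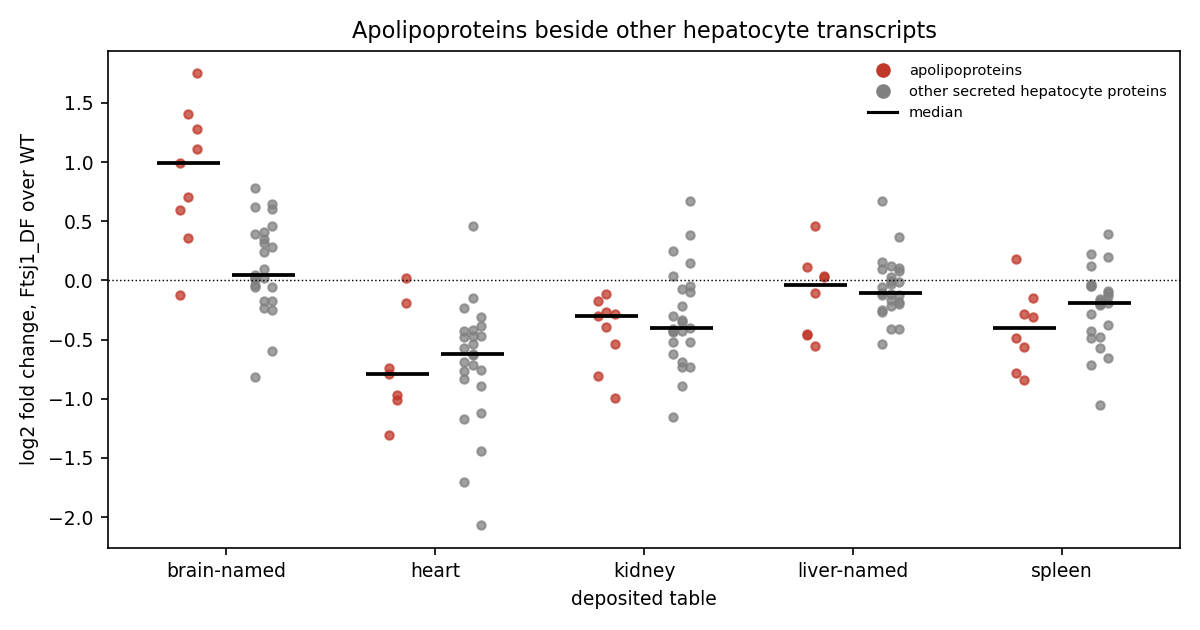
Log2 fold change, Ftsj1_DF over WT, of the apolipoprotein genes (red) and other secreted hepatocyte proteins (grey) with an adjusted p in each authors' deposited table, 1 point per gene, with medians as black bars. The medians are 1.00 and 0.05 in the brain-named table and lie closer together in the 4 other tables.

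Whether a member's fold change differed between 2 tables was tested by a 2-sided z from the deposited values, adjusted over all genes of each of 10 pairs of tables. Of 83 member differences, 0 passed and 10 had an unadjusted p under 0.05, all of them with the brain-named value above the other. They were 5 of 8 members for brain-named minus heart, against 6.57% of all genes, 2 of 9 minus kidney, against 8.32%, and 3 of 8 minus spleen, against 4.23%. For brain-named minus liver-named it was 0 of 9, against 4.29%, and for the 6 other pairs 0 members. The 10 differences came from Apoa1, Apoa2, Apoc1, Apoc3 and Apoh alone. Those of the same gene share its brain-named value, so their common direction is not independent. That of Apoa1 rests on a heart mean of 6.88 tags. Brain-named minus heart, Apoc1 differed by 3.06 ± 0.93 and Apoa2 by 2.20 ± 0.67, each with an adjusted p of 0.179 from the z across all genes, where 0.124% of 31427 genes passed. With z divided by its robust spread over all genes, 2 members passed for brain-named minus heart, where 0.713% of all genes did, and 1 for brain-named minus spleen, where 0.34% did. The share of all genes that passed was 0.653% for brain-named minus kidney, 0% for brain-named minus liver-named and 0.0223% for brain-named minus spleen. It was 0.299%, 0.0127% and 0.0426% for heart minus kidney, minus liver-named and minus spleen, 0.38% and 0.185% for kidney minus liver-named and minus spleen, and 0.035% for liver-named minus spleen. The z takes the tables as independent, although 4 of them come from the same mice.

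Other genes of lipoprotein handling were counted from 7 lists with 93 genes in all. Among 9 further apolipoprotein genes and 12 of the APOL family, 0 passed in any table. In the spleen only 4 of the 9 had an adjusted p. Saa1 and Saa2 are acute-phase apolipoproteins of high-density lipoprotein. Their log2 fold changes in the spleen were 4.60 ± 1.23 and 3.94 ± 1.34 with no p in the authors' deposited table, so they were not tested. Why no p was given is not stated, and these folds cannot be read as a rise. Of the 12 APOL genes in the spleen, 4 had an unadjusted p under 0.05, against 4.22% of all genes, namely Apol9b and Apol10b above 0 and Apol6 and Apol7e below it. Apon, which is abundant in hepatocytes, and Clu, the gene of clusterin or apolipoprotein J, were at 0.10 ± 0.35 and -0.11 ± 0.34 in the authors' deposited brain-named table. Clu had 2033, 472, 1744 and 3133 ppm in the heart, kidney, spleen and liver-named tables, against 1848 in the brain-named table, so unlike the members it was spread over all of them. None of the 12 genes of lipoprotein assembly and secretion passed in any table, and Mttp was at 0.38 ± 0.36 in the authors' deposited brain-named table. Of 17 lipoprotein receptor genes and their regulators 0 passed in any table, and neither did any of 8 genes of cholesterol efflux and bile export. By DESeq2, 0 to 4 genes of each of these 5 lists had an unadjusted p under 0.05 in a table, and the lists' median log2 fold changes lay between -0.54 and 0.69, where those of all genes tested lay between -0.05 and 0.04. Lrp2, which encodes megalin, an endocytic receptor of the kidney tubule, had 3893 ppm in the kidney table, against 7.75 in the brain-named table.

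The calls were 2 in the heart and 1 in the spleen table. Of 12 lipases, remodelling enzymes and their regulators in the heart, Angptl4, an inhibitor of lipoprotein lipase, rose by a log2 fold change of 1.22 ± 0.34 with an adjusted p of 0.0312 by DESeq2 in the authors' deposited table. Pon1, a paraoxonase carried on high-density lipoprotein, had a log2 fold change of -3.04 ± 0.71 and fell, with an adjusted p of 0.00582 by DESeq2 in the same deposited table. Pon1 stood at 1.00% of its brain-named level in the heart, and in the brain-named table it was at 1.36 ± 0.46 with an adjusted p of 0.151 by DESeq2 in the authors' deposited table. The 10 tested adipocyte markers had a median of -1.32 in the heart, with 2 above 0 and 0 passing, and 1 of 9 tested B cell markers, Ighm, fell. The part of these cells in the 2 calls was not tested. Of 23 genes of transcription factors that act on apolipoprotein genes, 1 passed in the spleen table: Foxa2, a forkhead factor of hepatocytes and pancreas, fell, with a log2 fold change of -6.19 ± 1.21 and an adjusted p of 0.000835 by DESeq2 in the authors' deposited table. These 3 calls were lost when the Wald statistic was set against a t distribution, and the 2 of the heart also when it was divided by its robust spread. Acinar markers, abundant in the spleen table, had a median of -0.33 there, with 2 of 14 above 0, and their part in the call was not tested. Of the 93 genes, 0 passed in the brain-named, kidney and liver-named tables, by DESeq2's adjusted p.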

How the data were processed

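Groups were taken from the organ and genotype in each sample's title. The submitters' processing notes name GRCm39, featureCounts, Subread 2.0.3 and DESeq2, but neither its version nor its model. What the authors deposited per gene is a mean signal: normalized counts averaged across an organ's libraries. Beside it stands the deposited log2 fold change with a standard error from the authors' fit, and a Wald score, which is their quotient. Both kinds of p-value, raw and adjusted, were used as deposited. A row without a gene name, 1 per table, was left out. The tables do not show the depth of single libraries, and the means summed to between 4.85e+07 and 7.34e+07 per table. The precision of a fold change is its deposited standard error, with a median of 0.45 to 0.63 over genes with a mean of at least 20.

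No test per gene was run anew. Members, lists and tests were chosen with earlier results of these data known. All members are named, then genes of the lists past the threshold or else the 2 with the highest mean, and the 3 genes nearest in level with a mean of at least 1000 in 1 table. Named after their values were seen were Mttp, Ttr, Kng2, Apoc4, Tomm40l, Fcer1g, Saa1, Saa2, Apol6, Apol7e, Apol9b and Apol10b. The ribosomal and mitochondrial groups were also added then, by symbol. Apolipoproteins listed at 0 are given no fold. Intervals are 95% normal intervals. Sequences came from RefSeq, GRCm38.p6, whose coordinates are not those of the authors' build. The scripts were tested on simulated data. The software was Python 3.11.15, scipy 1.17.1, numpy 2.4.6, matplotlib 3.10.9 and pandas 2.3.3. Alternatives were thresholds of 1% and 10%, adjustment over all p-values, a filter on means, a rescaled statistic, a t distribution, centring, a weighted mean and other scalings of levels.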

Additional observations from a re-analysis of the deposited data

How the results depend on the processing

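No paired analysis was possible because the tables hold no value per library, and for the same reason no library could be left out in turn. The count of members that passed stayed at 0 in all 5 tables under a threshold of 1%, adjustment over every p-value in the table, means of at least 20, a Wald statistic divided by its robust spread and a t distribution with libraries minus 2 degrees of freedom. A stricter threshold and a t distribution can only remove calls, so a 0 was certain there. The same holds for division by a spread above 1, which was 1.14 to 1.21 in all tables but the spleen, at 0.951. At 10%, 1 member, Apoa2, passed for brain-named and 0 for the others. In the heart table, 2 genes of the lipoprotein lists passed at 5%, 1 at a threshold of 1%, 1 with adjustment over every gene, 0 with the rescaled statistic and 0 with the t distribution. For spleen the count was 1 at 5%, 2 at 10%, 2 with the rescaled statistic and 0 with the t distribution. Between tables, dividing z by its robust spread gave 2 members that differed for brain-named minus heart, with a smallest adjusted p across all genes of 0.0358, and 1 for brain-named minus spleen, at 0.0258, in place of 0. The division raised the count over all genes as well, from 39 to 224 for brain-named minus heart. For brain-named minus spleen it went from 7 to 107. A spread below 1 enlarges every z alike, and 0.713% and 0.34% of all genes passed in these 2 pairs. Whether members passed more often than other genes was not tested. The mean of members weighted by precision was 0.72 in the brain-named table, beside a median of 1.00.

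Over all genes the t distribution gave 0 calls in every table, and the rescaled statistic 9 (brain-named), 48 (heart), 169 (kidney), 79 (spleen) and 2 (liver-named), in place of 73, 236, 407, 50 and 45. A threshold of 1% gave 14, 90, 184, 21 and 8 in the same order. One of 10% gave 155 for brain-named, 381 for heart, 78 for spleen and 125 for liver-named. Adjustment over every gene gave 38 in the brain-named table. The members' median share of their brain-named level depended on the scaling between tables: in the kidney it was 1.46%, 0.968% with means as deposited and 0.664% with median ratios. In the liver-named table it was 0.619%, and 0.272% with median ratios. In the spleen table it was 0.658%, 0.437% with means as deposited and 0.414% with median ratios. These scalings act on all genes of a table alike. The low means of Apoa1, Apoa4, Apoc1 and Apoh outside the brain-named table limit what can be seen of them.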
